A study of Mus musculus with 12 samples.

Results

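The activator protein 1 (AP-1) transcription factors and the related factor Atf3 were followed in regulatory T cells (Tregs) of perigonadal white adipose tissue (PGWAT) and spleen. The set holds 8 genes chosen by name and not by their values, namely Fos, Fosb, Fosl1, Fosl2, Jun, Junb, Jund and Atf3, out of 19057 gene symbols on the array. Every probe annotated to one of these symbols was taken, which gave 10 of 45281 probes for 7 genes. Fosl2 had 3 probes, Junb had 2, and Fos, Fosb, Jun, Jund and Atf3 had 1 each. No probe was annotated to Fosl1, so its level was not analysed here. All 10 probes passed the filter on dim probes, which asked for detection (p under 0.05) on 3 or more of the 12 arrays and kept 22833 probes.

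The mice were C57BL/6 animals on a high fat diet. Control mice carried Foxp3Cre, and Tbet flox mice carried Tbetflox together with Foxp3Cre, so that both genotypes express the recombinase, described as a YFP-Cre at Foxp3, in the cells that express Foxp3. Each combination of tissue and genotype was measured on 3 Illumina MouseWG-6 arrays, which give 1 bead-averaged intensity per probe from amplified complementary DNA. The labels give no age or sex of the animals, and they do not say whether arrays came from separate animals or pools, so p-values reflect the spread among these samples alone, and that spread may be technical.

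AP-1 is a dimer of basic leucine zipper (bZIP) proteins, formed by a Jun protein with a Fos protein, with another Jun or with a factor of the ATF or Maf families. Fos, Fosb, Jun and Atf3 are immediate early genes, switched on by growth factors, antigen receptor signals and cell stress through the MAP kinases without new protein synthesis. In T cells AP-1 binds with NFAT and drives cytokine genes after antigen recognition, and in Tregs Foxp3 and AP-1 can compete for NFAT.

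The start regions of 5 members are shown because their levels, given below, ranged from no clear tissue difference (Jun) to the widest (Fosl2 and Atf3). The sequences are from RefSeq on GRCm38.p6, run from 250 bases before to 50 bases after the annotated start, and are written 5′ to 3′ on the gene's own strand. Capitals mark TGACG or its complement CGTCA, the core of the cyclic AMP response element (CRE) to which ATF factors bind, and in Jun the site TGACATCA, a known binding site of Jun and ATF dimers. The windows lie at chr1:191183284-191183583 (minus strand, Atf3), chr5:32136222-32136521 (plus strand, Fosl2), chr7:19309996-19310295 (minus strand, Fosb), chr12:85473640-85473939 (plus strand, Fos) and chr4:95052173-95052472 (minus strand, Jun).
Atf3: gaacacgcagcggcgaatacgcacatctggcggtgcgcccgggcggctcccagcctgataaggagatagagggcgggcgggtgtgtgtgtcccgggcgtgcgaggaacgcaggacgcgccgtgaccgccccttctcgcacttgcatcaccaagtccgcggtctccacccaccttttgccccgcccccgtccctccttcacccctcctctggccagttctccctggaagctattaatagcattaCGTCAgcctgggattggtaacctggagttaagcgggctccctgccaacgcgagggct
Fosl2: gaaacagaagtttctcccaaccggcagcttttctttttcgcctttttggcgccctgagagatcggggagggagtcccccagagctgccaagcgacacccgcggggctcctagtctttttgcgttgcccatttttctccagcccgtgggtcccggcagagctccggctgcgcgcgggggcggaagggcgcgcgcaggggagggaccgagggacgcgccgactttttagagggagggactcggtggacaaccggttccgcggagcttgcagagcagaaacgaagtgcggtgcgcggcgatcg
Fosb: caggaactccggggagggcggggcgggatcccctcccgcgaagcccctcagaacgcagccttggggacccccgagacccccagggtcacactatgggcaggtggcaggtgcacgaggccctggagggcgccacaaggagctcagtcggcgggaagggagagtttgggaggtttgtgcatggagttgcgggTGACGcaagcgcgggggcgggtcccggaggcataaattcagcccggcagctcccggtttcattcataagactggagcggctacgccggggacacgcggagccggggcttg
Fos: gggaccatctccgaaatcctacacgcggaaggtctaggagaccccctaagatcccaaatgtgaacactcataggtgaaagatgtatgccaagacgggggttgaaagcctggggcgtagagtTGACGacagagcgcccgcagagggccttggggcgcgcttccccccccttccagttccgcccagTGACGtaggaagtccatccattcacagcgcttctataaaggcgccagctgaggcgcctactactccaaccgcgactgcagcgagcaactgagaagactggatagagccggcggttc
Jun: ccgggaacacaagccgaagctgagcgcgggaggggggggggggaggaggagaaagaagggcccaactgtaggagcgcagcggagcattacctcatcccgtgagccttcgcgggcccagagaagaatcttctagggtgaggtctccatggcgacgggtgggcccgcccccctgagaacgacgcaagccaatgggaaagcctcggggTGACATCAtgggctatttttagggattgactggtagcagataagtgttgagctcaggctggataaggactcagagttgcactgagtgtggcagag
A promoter window was found for 7 of the 8 members, and both strands were searched. The TGACG core was present in 4 of the 7 (Atf3, Fos, Fosb and Junb), against 20.8% of 32851 mouse promoter windows of the same length. The Jun and ATF site TGACATCA was present in 1 of 7 (Jun), against 3.62% of windows. Neither the full CRE, TGACGTCA, which contains the TGACG core on both strands, nor the AP-1 site TGANTCA was present in any of the 7 windows (1.79% and 7.81% of all windows). The CArG box, the binding site of serum response factor, was likewise in 0 of 7 (1.63% of all windows). The matches describe the letters of these windows only.

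Before the members are described, several properties of the arrays bear on them. The median signal was 82.4 to 115 intensity units and 11252 to 17090 probes were detected at p under 0.01 per array. PGWAT arrays of 1 group correlated at r = 0.752 to 0.857 with each other and spleen arrays at 0.975 to 0.989, so each tissue had its own weight in the fit. Each tissue lay on its own chip, so tissue and chip cannot be told apart. Foxp3 was above background on all 12 arrays, but its level was uneven in control PGWAT. It ran from 5.44 to 9.50 there, against 7.62 to 8.74 in Tbet flox PGWAT. In spleen it ran from 8.39 to 8.91 in control and 8.39 to 8.83 in Tbet flox mice. The targeted gene Tbx21, which encodes Tbet, was not called by genotype in PGWAT (log2 difference 0.29 ± 1.13 SE, adjusted p = 0.980) or in spleen (-0.38 ± 0.35, adjusted p = 0.634, limma, n = 3 arrays a group). In PGWAT it was above background on 1 of 3 control and 2 of 3 Tbet flox arrays. In spleen it was above background on 3 of 3 control and 2 of 3 Tbet flox arrays. These values do not show whether Tbx21 differed. Where its probe lies relative to the floxed part of the gene is not given in the sources used here, so the probe checks no label. PGWAT control 1 stood apart with the lowest summed T cell genes, the lowest summed core Treg genes (2528) and the highest summed stromal markers. PGWAT Tbet flox 3 stood apart with summed macrophage markers within the spleen range, and each result below that rests on these 2 arrays was also computed without them.

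Several AP-1 genes and Atf3 were far higher in PGWAT Tregs than in spleen Tregs, in both genotypes, while others were not called. In control mice Fosb, Fosl2, Jund and Atf3 rose in PGWAT, by 3.62-fold for Jund up to 55.3-fold for the brightest Fosl2 probe. Fos, Jun and both Junb probes did not pass the test in that comparison. In Tbet flox mice the same 4 genes and the first Junb probe rose. The test was limma's moderated test, two-sided, with Benjamini-Hochberg adjustment over all 22833 probes and a threshold of 0.05, and each difference below is on the log2 intensity scale with its standard error. By that rule 6 of 10 member probes were called higher in control PGWAT and 0 lower, where 6.13% of all probes were called higher and 13.8% in either direction. In Tbet flox mice 7 of 10 were called higher and 0 lower, where 3.88% of all probes were called higher and 8.54% in either direction. The median difference of the 10 probes was 2.46 in control mice and 3.34 in Tbet flox mice, each the midpoint between Jund and Fosb, beside -0.13 and -0.08 over all probes. In each genotype 9 of 10 probes had all PGWAT arrays above all spleen arrays, against 12.8% of all probes in control and 13.8% in Tbet flox mice. Atf3, the second Junb probe and Fosl2 probes 2 and 3 were not above background on any spleen array. They passed the filter on dim probes through PGWAT arrays alone, so they could scarcely be called lower in PGWAT. The direction of these probes in the counts was thus largely set by the filter. In these bulk samples fewer cells of a type and less RNA per cell cannot be told apart. The summed levels of macrophage and stromal markers were also higher in PGWAT, as given further on, and their part in these differences was not tested.

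**Figure D1:**
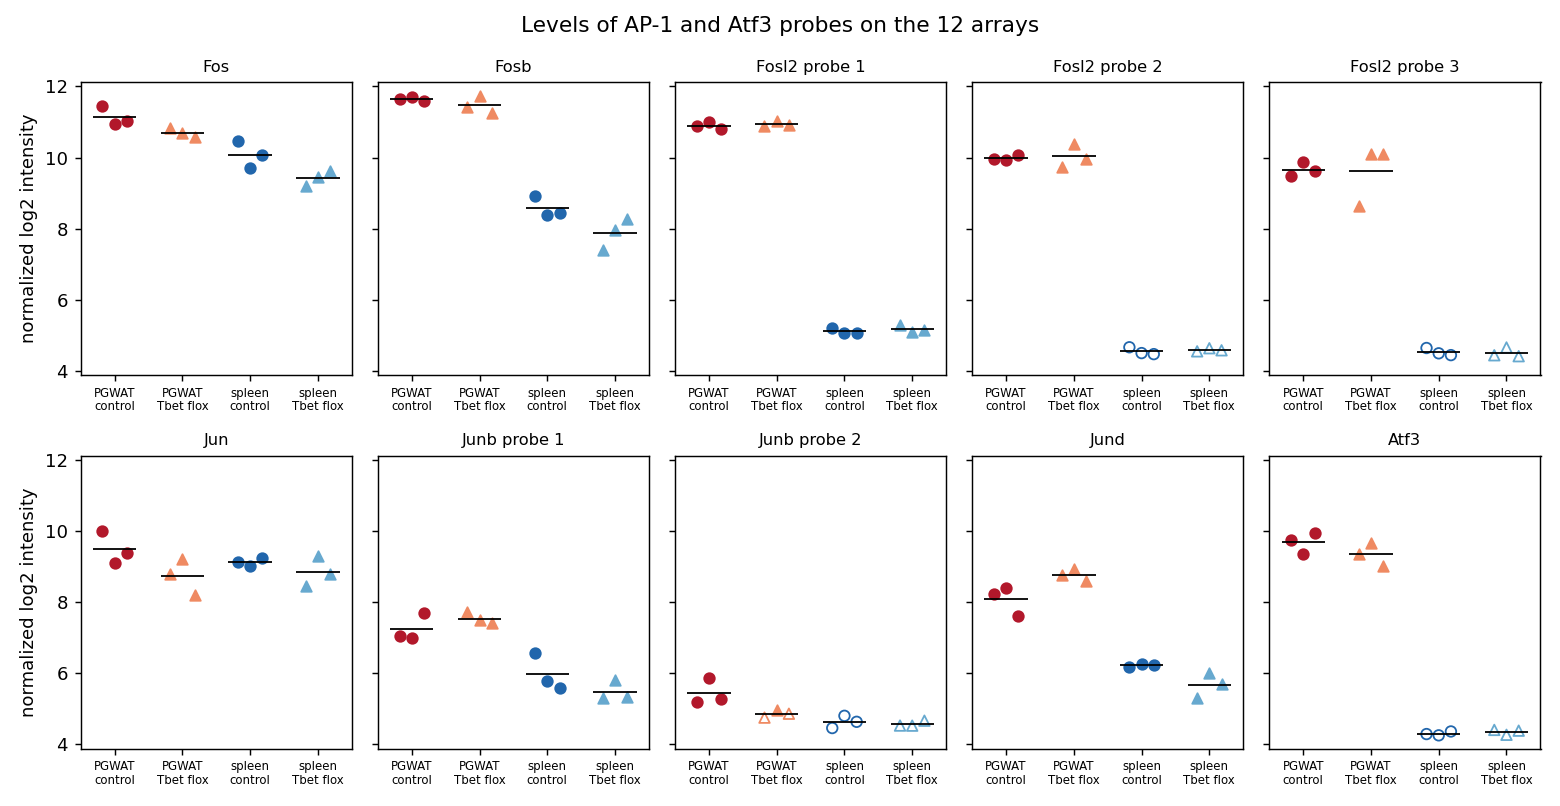
Normalized log2 intensity of each of the 10 member probes on every array, with 1 point per array, the 4 groups side by side and a line at each group mean; open points were not above background (detection p of 0.05 or more). The 3 Fosl2 probes and Atf3 sit near 10 in PGWAT and near 5 or below in spleen, while the Jun points of the 4 groups overlap.

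Fosl2, also known as Fra-2, is a Fos family protein that lacks the activation domain of Fos. Its brightest probe read 10.88, 11.00 and 10.81 in control PGWAT, 10.89, 11.03 and 10.92 in Tbet flox PGWAT, 5.21, 5.06 and 5.05 in control spleen and 5.29, 5.09 and 5.14 in Tbet flox spleen. All 6 PGWAT arrays lay far above all 6 spleen arrays, and within each tissue the genotypes overlapped. The tissue difference was 5.79 ± 0.27 in control mice (adjusted p = 7.01e-08) and 5.77 ± 0.27 in Tbet flox mice (adjusted p = 1.37e-07), or 55.3-fold and 54.6-fold. By size it ranked 16th of 22833 probes in control and 5th in Tbet flox mice. This probe was above background on all 6 spleen arrays at detection p under 0.05, with a highest detection p of 0.0288. Its spleen levels of 5.05 to 5.29 lay close to the lowest levels of detected probes on those arrays (4.71 to 4.89). The size of its fold thus depends on how background was handled, as the authors' processed table below shows. Fosl2 probes 2 and 3 were not above background on any spleen array, where they read 4.46 to 4.66 and 4.41 to 4.65. In PGWAT probe 2 read 9.96, 9.93 and 10.08 in control and 9.73, 10.39 and 9.97 in Tbet flox mice. Probe 3 read 9.48, 9.88 and 9.63 in control and 8.65, 10.09 and 10.09 in Tbet flox mice, where 1 array sat below the rest. A lower bound was taken against the lowest signal among detected probes (p under 0.05) on each spleen array. Against it probe 2 was at least 36.5-fold higher in control PGWAT and at least 38.7-fold in Tbet flox PGWAT. For probe 3 the bounds were 29.1-fold and 28.9-fold. Probes 2 and 3 were called in both genotypes (adjusted p = 7.40e-08 and 1.08e-06 in control mice, 1.37e-07 and 1.58e-06 in Tbet flox mice), so the 3 probes of the gene gave the same call.

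Fosb, a Fos protein with a full activation domain, read 11.64, 11.71 and 11.58 in control PGWAT and 11.43, 11.74 and 11.25 in Tbet flox PGWAT. In spleen it read 8.91, 8.37 and 8.43 in control and 7.41, 7.96 and 8.27 in Tbet flox mice, above background on every array. The tissues did not overlap, and PGWAT was higher by 3.07 ± 0.47 in control mice (8.39-fold, adjusted p = 0.000831) and 3.59 ± 0.47 in Tbet flox mice (12.1-fold, adjusted p = 0.000401). Fos itself read 11.46, 10.95 and 11.04 in control PGWAT, 10.83, 10.69 and 10.57 in Tbet flox PGWAT, 10.46, 9.69 and 10.06 in control spleen and 9.21, 9.46 and 9.62 in Tbet flox spleen. The 4 groups of Fos did not overlap, and that is also the order of their means from the highest. The tissue difference of Fos, 1.08 ± 0.41 in control mice and 1.27 ± 0.41 in Tbet flox mice, did not pass the threshold (adjusted p = 0.103 and 0.0760). It passed with 1 spread for all arrays (adjusted p = 0.0172 and 0.0112) and without spleen control 1 (0.0309 and 0.0382). In Tbet flox mice it also passed without spleen control 2 (0.0431) and with the compared groups fitted alone (0.0383).

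Atf3 is a stress-induced member of the ATF/CREB family that forms dimers with Jun proteins and represses inflammatory cytokine genes in macrophages. It read 9.77, 9.37 and 9.96 in control PGWAT and 9.36, 9.67 and 9.02 in Tbet flox PGWAT. On all 6 spleen arrays it was not above background, at 4.29, 4.25 and 4.36 in control and 4.41, 4.27 and 4.39 in Tbet flox mice. Atf3 was therefore at least 29.9-fold higher in PGWAT of control mice (adjusted p = 8.45e-08) and at least 24.2-fold higher in Tbet flox mice (adjusted p = 2.68e-07). The authors' processed table was read as holding no background subtraction. In it the sizes were smaller and the calls held: 3.41 for Atf3 and 4.17 for the brightest Fosl2 probe in control mice, and 3.05 and 4.19 in Tbet flox mice.

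Among the Jun genes, Jund was called between tissues in both genotypes. Its protein is present in many resting cells and can restrain proliferation. It read 8.22, 8.40 and 7.62 in control PGWAT, 8.76, 8.93 and 8.59 in Tbet flox PGWAT, 6.19, 6.25 and 6.24 in control spleen and 5.31, 6.02 and 5.69 in Tbet flox spleen. No groups overlapped, with PGWAT Tbet flox highest and spleen Tbet flox lowest. PGWAT was higher by 1.86 ± 0.38 in control mice (3.62-fold, adjusted p = 0.00547) and by 3.09 ± 0.38 in Tbet flox mice (8.51-fold, adjusted p = 0.000245). In the authors' processed table the differences were 1.21 and 2.00, and both were called.

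Junb, a weaker activator than Jun that pairs with Batf in activated T cells, was measured by 2 probes that did not give the same calls. The first read 7.05, 6.99 and 7.69 in control PGWAT, 7.71, 7.50 and 7.42 in Tbet flox PGWAT, 6.56, 5.77 and 5.59 in control spleen and 5.31, 5.81 and 5.33 in Tbet flox spleen. Its tissues did not overlap. The difference was 2.06 ± 0.51 in Tbet flox mice (4.17-fold, adjusted p = 0.0252) and 1.27 ± 0.51 in control mice (adjusted p = 0.122). The Tbet flox call was lost without PGWAT Tbet flox 1, 2 or 3 in turn (adjusted p = 0.127, 0.102 and 0.0988), and the control difference passed without spleen control 1 (adjusted p = 0.0153). The second probe, annotated to another transcript record, was not above background on any spleen array. It read 5.18, 5.88 and 5.29 in control PGWAT and 4.75, 4.98 and 4.86 in Tbet flox PGWAT, where 1 of the 3 arrays was above background. It was not called in either genotype (adjusted p = 0.0868 and 0.615).

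Jun, a strong activator of the family and the substrate that gave the Jun N-terminal kinases their name, showed no tissue difference past the threshold. It read 10.00, 9.11 and 9.39 in control PGWAT, 8.79, 9.22 and 8.21 in Tbet flox PGWAT, 9.13, 9.02 and 9.24 in control spleen and 8.47, 9.30 and 8.79 in Tbet flox spleen. All neighbouring groups overlapped. The difference between tissues was 0.37 in control mice, with a 95% interval of -0.57 to 1.31 (adjusted p = 0.630), and -0.11 in Tbet flox mice, with an interval of -1.05 to 0.83 (adjusted p = 0.910). Both intervals end below the difference of Jund in control mice (1.86).

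**Figure D2:**
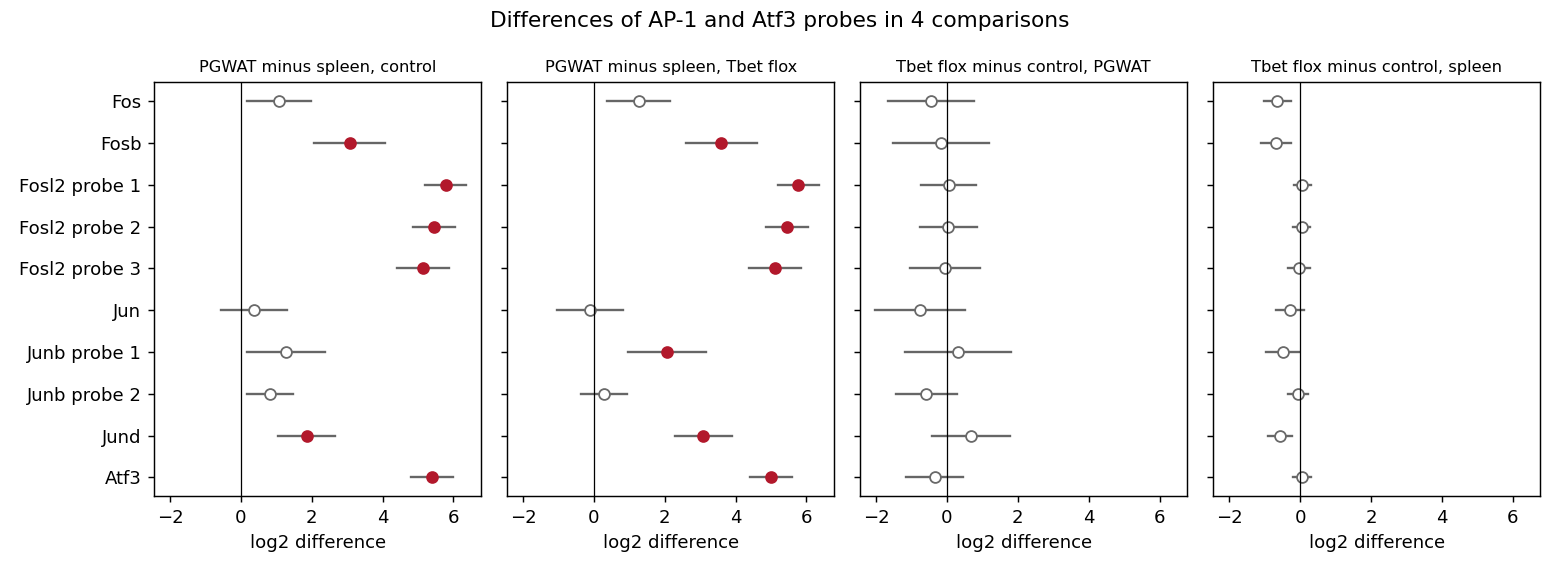
Log2 difference of each member probe in the comparisons of the design (columns), with horizontal lines for the 95% interval of limma's fit; filled red points passed an adjusted p of 0.05 and open points did not. The called points lie in the 2 tissue columns, where Fosl2 and Atf3 stand near 5 and Jun near 0.

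The Tbet flox genotype was compared with control within each tissue. In PGWAT none of the 10 member probes was called by limma, where 0.166% of all probes were, and none had an unadjusted p under 0.05 (9.54% of all probes). The largest differences of Tbet flox from control were -0.76 for Jun, 0.68 for Jund, -0.59 for the second Junb probe and -0.45 for Fos, with adjusted p of 0.741 to 0.898. The brightest Fosl2 probe differed by 0.05, with a 95% interval of -0.73 to 0.83, and Atf3 by -0.35, with an interval of -1.15 to 0.46. With 3 arrays a group, changes of up to about those bounds were thus not excluded for these 2 probes. The intervals are not adjusted for the number of probes. They do not give the smallest change that the adjusted test could have called. The groups did not overlap for 3 of 10 probes (Jund higher in Tbet flox, Fos and the second Junb probe lower), against 14.2% of all probes. In this comparison 0 of 12 macrophage markers were measured higher, with a median of -1.70 beside 0.04 over all named genes. Of the core Treg genes 10 of 10 were measured higher (median 0.89), and of the T cell genes 8 of 9 (median 0.61). None of these genes was called, and their part in the members' values was not tested.

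In spleen, where replicate arrays lay closer together, none of the 10 member probes was called either (1.47% of all probes), but 4 of 10 had an unadjusted p under 0.05 in limma's fit (17.5% of all probes). The measured difference of Tbet flox from control was -0.64 ± 0.17 for Fos (adjusted p = 0.0766), -0.69 ± 0.20 for Fosb (adjusted p = 0.0896) and -0.55 ± 0.16 for Jund (adjusted p = 0.0905), and in these 3 the groups did not overlap (10.5% of all probes did not overlap and were lower). The first Junb probe differed by -0.49 ± 0.22 (adjusted p = 0.262). Without spleen control 2, Fos passed the threshold with a difference of -0.83 (adjusted p = 0.0321), the only 1 of 21 alternative settings where it did. Fosb and Jund passed in 0 of 21. In the alternatives other than leaving 1 replicate out, limma's adjusted p of these 3 genes reached 0.99998. With no weight per tissue 0 of 22833 probes were called in spleen, so the adjusted p-values above depend on the weight. Of the genes listed as immediate early or stress genes, 3 of 27 fell (0.992% of all named genes were called lower). Hspa1b and Hspa1a, which encode inducible heat shock chaperones, fell in Tbet flox spleen by 2.79 and 2.72 on the log2 scale (adjusted p = 0.00216 and 0.00394, each kept in 19 of 21 alternative settings). Nr4a2, an orphan nuclear receptor gene induced with Fosb, fell by 0.61 (adjusted p = 0.0438), a call kept in 3 of them. Csf1r, the macrophage growth factor receptor, fell by 0.93 (adjusted p = 0.0383, kept in 9 of 21 settings), and 11 of 12 macrophage markers were measured lower there, with a median of -0.66 beside -0.01 over all named genes. The part of these markers in the values of Fos, Fosb and Jund was not tested.

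The genotype difference was also compared between tissues by the interaction term of the same fit. No member probe was called (0.0526% of all probes), and 1 of 10, Jund, had an unadjusted p under 0.05 (10.2% of all probes). Jund was 0.68 above control in Tbet flox PGWAT and 0.55 below it in Tbet flox spleen, an interaction of 1.23 ± 0.53 with adjusted p = 0.454. The tissue differences of the members given for the 2 genotypes therefore did not differ from each other past the threshold.

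Genes that act with or around AP-1 were read from lists by the brightest probe of each gene. The background for these counts was 7.52% of named genes called higher and 9.43% called lower in PGWAT of control mice, and 5.02% and 5.07% in Tbet flox mice. The lists were chosen with earlier results of these data known, so their direction is not independent evidence. Listed genes not above background on any spleen array passed the filter on dim probes through PGWAT arrays alone. Such genes could scarcely be called lower in PGWAT.

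Of 21 measured other bZIP factors, 7 rose and 1 fell in PGWAT of control mice, and 4 rose and 1 fell in Tbet flox mice. In control mice Maff and Mafk, small Maf proteins without an activation domain, rose by 3.72 and 2.10 (adjusted p = 0.000336 and 0.00173). Crem, a cyclic AMP responsive factor with activating and repressing forms, rose by 4.07 in control and 4.44 in Tbet flox mice, and Nfe2l2, the oxidative stress factor Nrf2, by 2.07 in control mice. In Tbet flox mice Maff and Cebpb, a regulator of inflammatory and fat cell genes, rose by 3.55 and 3.18. Jdp2, a repressor of AP-1, was not above background in Tbet flox spleen and rose at least 5.24-fold in Tbet flox PGWAT (adjusted p = 0.00483). The genes that fell, named after their values were seen, were Cebpd in control mice (-1.59, adjusted p = 0.0116) and Ddit3, a factor of the unfolded protein response, in Tbet flox mice (-1.74, adjusted p = 0.0267). The median difference of the list was 0.71 in control and 0.47 in Tbet flox mice, beside -0.15 and -0.05 over all named genes. Without PGWAT control 1 and PGWAT Tbet flox 3, 4 factors rose in control mice, and without PGWAT Tbet flox 3 alone 3 of 21 were called in Tbet flox mice.

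Of 22 kinases and factors upstream of AP-1, 1 passed the test in each genotype. Map2k2, which activates the ERK kinases, fell by 1.70 in PGWAT of control mice (adjusted p = 0.0102), a call lost without PGWAT control 2 or 3. Map2k3, which activates p38, rose by 1.66 in Tbet flox mice (adjusted p = 0.0394), a call kept in 9 of 21 settings. The median differences of the list were -0.01 and -0.12.

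Of 27 immediate early and stress genes, 12 rose and 0 fell in PGWAT of control mice, and 10 rose and 0 fell in Tbet flox mice. Ier3, a stress-induced survival gene, rose by 5.51 and 5.12, and the orphan nuclear receptor genes Nr4a2 and Nr4a3 rose by 3.80 and 3.45 in control and by 3.84 and 3.07 in Tbet flox mice. Ccn1, a secreted matrix protein gene also known as Cyr61, was not above background on any spleen array and rose at least 26.7-fold in control mice (adjusted p = 8.77e-07). In Tbet flox mice Gadd45b, a stress gene that can activate p38, rose by 3.40. The count in control mice was 7 without PGWAT control 1 or without PGWAT control 3. The list's median was 0.92 in control and 0.79 in Tbet flox mice. In the same list Hspa1a (0.31, adjusted p = 0.834) and Hspa1b (-1.25, adjusted p = 0.300) did not pass in control mice. Between genotypes in PGWAT (0.0919% of named genes called lower), Ccn1 fell by 2.94 in Tbet flox mice (adjusted p = 0.0346), with an interaction of -2.97 (adjusted p = 0.0472, where 0.0184% of named genes were called lower). The first of these calls was kept in 8 of 21 settings and the second in 6 of 20, and both were lost without PGWAT control 1 and PGWAT Tbet flox 3. The part of the macrophage and T cell gene differences between genotypes in PGWAT in the Ccn1 values was not tested.

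Of 19 measured genes known as AP-1 targets in various cell types, 12 rose in PGWAT of control mice and 11 in Tbet flox mice, with 0 that fell. Mt1, a metallothionein gene, rose by 6.08 and 5.14, and Mt2, another metallothionein gene, by 3.33 in Tbet flox mice. Plau, the urokinase gene, was not above background in control spleen and rose at least 31.4-fold in control PGWAT, and by 3.04 in Tbet flox mice. Il6 and Ccl2, a cytokine and a monocyte chemokine made by many non-lymphoid cells, rose at least 21.8-fold and 18.9-fold in control mice against a spleen level not above background. Mmp9, a matrix protease gene, rose by 4.08 in Tbet flox mice. The list's median was 2.38 in control and 1.73 in Tbet flox mice. Il1b, Il6, Ccl2 and Vegfa were not above background on any spleen array, so these targets could scarcely be called lower in PGWAT. In spleen Ifng, a cytokine gene directly controlled by Tbet, fell in Tbet flox mice by 2.13 on the log2 scale (adjusted p = 0.00216). In PGWAT its genotype difference was -3.55 and was not called (limma, adjusted p = 0.10). There 4 of the 19 targets were measured higher in Tbet flox mice, with a median of -0.63 beside 0.04 over all named genes. None of the 19 was called by genotype in PGWAT or by the interaction. The part of other cells in these values was not tested.

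**Figure D3:**
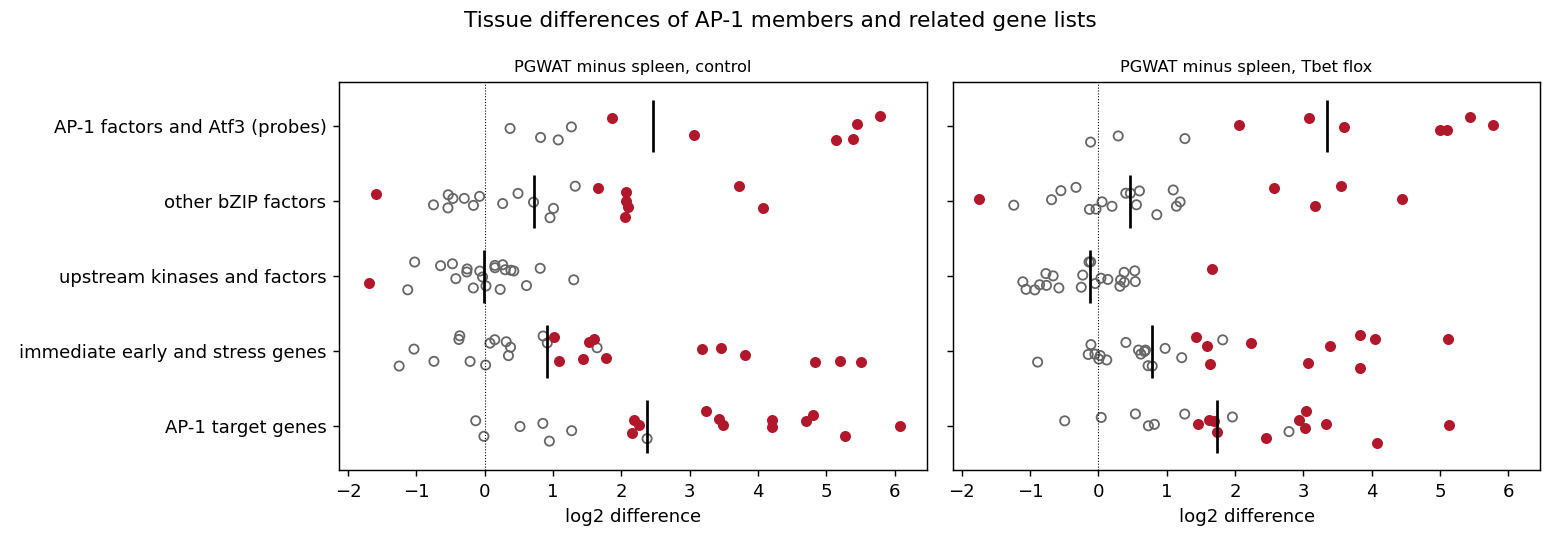
Log2 difference between PGWAT and spleen for every measured gene of the AP-1 set and of the related lists, in control and Tbet flox mice, with 1 point per probe or gene, red where the adjusted p was under 0.05 and a black bar at the list's median. The members and the AP-1 targets have medians above 1.7 in both genotypes, while the upstream kinases lie around 0.

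Markers of other cell types moved with the same tissue comparison. Of 12 measured macrophage and monocyte markers, 10 rose in PGWAT of control mice and 3 in Tbet flox mice (0 without PGWAT Tbet flox 1 or 2, and 7 without PGWAT Tbet flox 3 or without both arrays that stood apart). Lyz2, lysozyme, rose by 4.08 and 2.63, and C1qa, a complement gene of tissue macrophages, by 3.73 and 1.69. Their summed level, in normalized intensity units, was 18510 to 20138 in control PGWAT, 2149 to 12735 in Tbet flox PGWAT, 2378 to 3725 in control spleen and 2011 to 2819 in Tbet flox spleen. Of 8 dendritic cell markers, 5 rose in each genotype (Cd74, H2-Aa, H2-Ab1, H2-Eb1 and Cd209a), but 1 in Tbet flox mice without PGWAT Tbet flox 1 or 2, with sums of 15904 to 16862 and 2974 to 11598 in PGWAT against 1192 to 2129 in spleen. Itgax and Flt3 of the same list were not above background on any control PGWAT array. Of the 8, 6 were measured higher in control mice and 8 in Tbet flox mice. Of 7 stromal and endothelial markers, 6 rose in control and 4 in Tbet flox mice, with sums of 1688 to 9485 in PGWAT and 247 to 288 in spleen, where Col1a2, Col3a1, Dcn, Sparc and Emcn were not above background. Of 4 adipocyte markers, 3 rose in control mice (1 without PGWAT control 1) and 1, Fabp4, in Tbet flox mice (2 without PGWAT Tbet flox 3). All 4 were not above background in spleen, and the sums were 2461 to 8519 in PGWAT. These 4 and the 5 stromal markers named could scarcely be called lower in PGWAT. The adipocyte sums were set largely by Fabp4. In Tbet flox PGWAT the mean log2 level was 11.56 for Fabp4, 5.45 for Lep and 4.79 for Adipoq. Of 9 T cell genes, 5 fell in PGWAT of control mice (Cd247, Cd5, Zap70, Cd3g and Cd4), and in Tbet flox mice Cd247 and Cd5 fell and Cd28 rose. The first count was 3 without PGWAT control 1 or PGWAT Tbet flox 2 and 2 without PGWAT control 2, and 1 gene was called in Tbet flox mice with any 1 PGWAT Tbet flox array left out. No B cell (2 measured), CD8 and NK cell (4) or red cell marker (2) was called, and of 10 Treg core genes Gpr83 fell in both genotypes and Ctla4 rose in Tbet flox mice, where 1 gene was called with any 1 PGWAT Tbet flox array left out. The part of these cells in the members' tissue differences was not tested.

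On PGWAT Tbet flox 3, an array singled out after its marker levels were seen, the summed macrophage markers were 2149, within the range of the spleen arrays, and Fosl2 (brightest probe) was at 10.92, Atf3 at 9.02, Fosb at 11.25 and Jund at 8.59. Relative to the mean of the spleen Tbet flox arrays, Fosl2 was higher by 5.75, Fosb by 3.37, Jund by 2.92 and the first Junb probe by 1.93, while Jun was at -0.64. These are values of 1 array, and no test was made on them. Its other marker sums were above the spleen range, at 2114 for stromal, 2974 for dendritic cell and 2969 for adipocyte markers (81.9 to 90.5 in spleen). Without this array and PGWAT control 1, the differences were 5.81 and 5.80 for Fosl2, 3.06 and 3.70 for Fosb and 1.79 and 3.18 for Jund in control and Tbet flox mice, and each was called, as was Atf3 in both genotypes. Jun then differed by 0.12 in control and 0.15 in Tbet flox mice, and the first Junb probe was not called (adjusted p = 0.239 and 0.0910). The counts were then 6 of 10 in both genotypes.

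**Figure D4:**
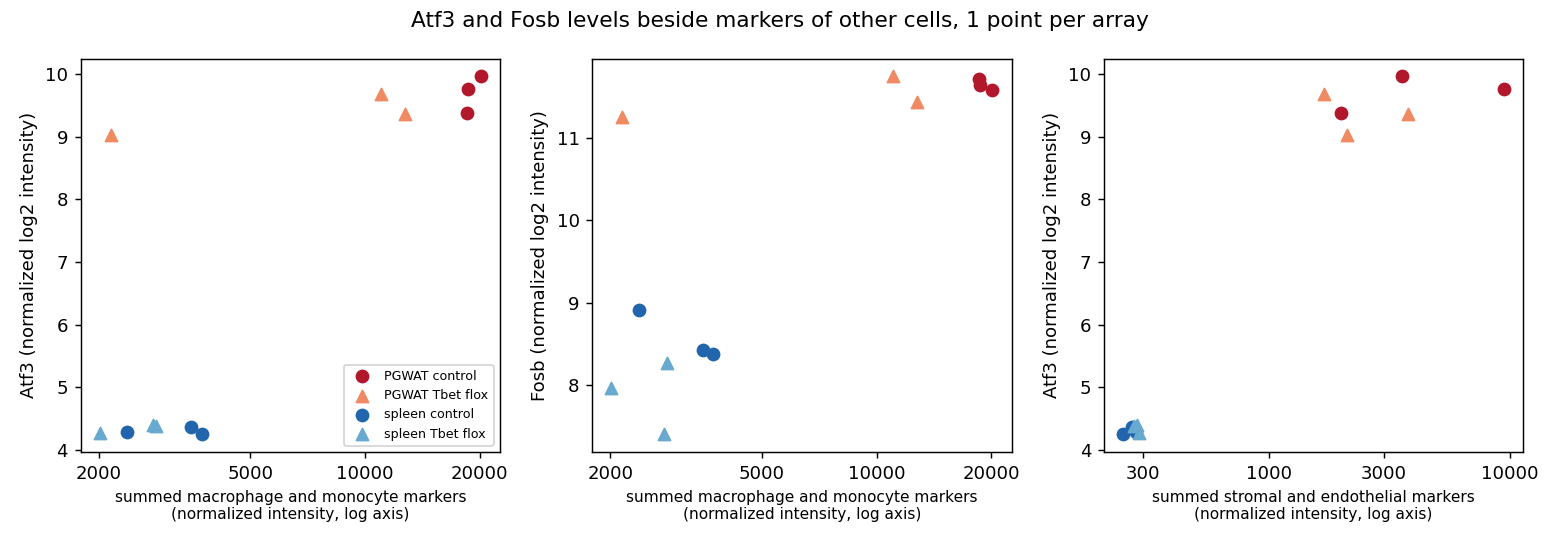
Level of Atf3 and Fosb (log2 intensity) against the summed level of macrophage markers, and Atf3 against stromal and endothelial markers (log axis, intensity units), with 1 point per array. PGWAT Tbet flox 3, at a macrophage sum of 2149 among the spleen arrays, has Atf3 at 9.02 and Fosb at 11.25. The stromal sums of all PGWAT arrays lie above those of all spleen arrays.

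Over the 12 arrays the members followed different genes most closely. These Pearson correlations are descriptions over arrays that share the split by tissue. The pattern of Atf3 was most like that of Ier3 (r = 0.998), Cdkn1a, the cell cycle inhibitor p21 (0.997), and Fosl2 (0.996). Fosl2 was most like Cdkn1a (0.997), Rgcc (0.996) and Atf3, and Fosb most like Btg2 (0.992), Nr4a2 (0.990) and Dusp1, a MAP kinase phosphatase gene (0.988). Fos was most like Socs3 (0.967), Egr1 (0.951) and Spag9 (0.947). Jund was most like the histone gene H1f2 (0.983), Nfkbiz (0.980) and Vps37b (0.978), and Junb most like C1qtnf3 (0.956), Zfp36l1 (0.953) and Vps37b (0.950). Jun, with no tissue difference past the threshold, was most like 1700025G04Rik (0.924), Brd2 (0.918) and Dnajb1 (0.899).

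Within a tissue the members did not keep one order of likeness. The brightest Fosl2 probe and Atf3 correlated at r = 0.996 over 12 arrays but at -0.353 over the 6 PGWAT arrays and 0.493 over the 6 spleen arrays, where Atf3 was not above background. Fos and Fosb correlated at 0.923 over all arrays, 0.434 in PGWAT and 0.935 in spleen. Jun and Atf3 correlated at 0.202 over all arrays and 0.847 in PGWAT.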

How the data were processed

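RNA of regulatory T cells was amplified and labelled with NuGen kits, per the labels' protocols, and hybridised to 12 Illumina arrays. The deposited table of non-normalized values holds for each probe on each array a bead-averaged intensity and a detection p-value, per the file headers. Both come from GenomeStudio (version not stated), per the submitters' processing notes. The intensities were read as not background-subtracted, because undetected probes kept a high signal (Atf3 at 82.0 on spleen control 2). The authors' processed table, also deposited, gives linear intensities that rank each array's probes as the signals do (Spearman correlation of 1) with column medians of 98.0 to 98.1, and was read as quantile normalized. Probes were named through the platform annotation: 34885 had 1 symbol, 18 several and 10378 none, and none was named from several.

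Signals were normalized in R 4.3.3 by the neqc function of limma 3.58.1 (offset of 16, background from the detection p-values, quantile normalization, log2). Probes detected at p under 0.05 on 3 or more arrays were fitted with lmFit and eBayes, as 4 group means with 1 weight per tissue (arrayWeights: 0.312 for PGWAT, 3.21 for spleen), and p-values were adjusted with Benjamini-Hochberg over all of them. For a probe not above background on any array of a group, the fold is a lower bound against each array's lowest signal among detected probes, or against its own signal if higher. Array number limits the precision. The scripts were tested on simulated data.

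The members, the lists and the weighted model were chosen with earlier results of these data known. All member probes are named, and of each other list up to 4 genes past the threshold with the smallest p. Likeness is Pearson correlation over the 12 arrays among named genes. Same-numbered arrays did not deviate together (r = -0.192 to 0.0669), so the numbers were not used as pairs. Alternatives covered the normalization, the background, the authors' processed table, the filter, the weights, the arrays in the fit, the probes, the replicate numbers as a block, 2 PGWAT arrays left out, and each replicate left out in turn.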

Additional observations from a re-analysis of the deposited data

Results flagged for a closer look

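The genotype difference ran in opposite directions in the 2 tissues for 2 member probes, with every Tbet flox array above the control mean in PGWAT and below it in spleen. For Jund the difference between the tissues was 1.23 on the log2 scale (limma interaction, adjusted p = 0.454), and for the first Junb probe it was 0.79 (adjusted p = 0.791), so neither passed the threshold. The second Junb probe went the other way in PGWAT, by -0.59, with an interaction of -0.53 (adjusted p = 0.742). How many of all probes run in opposite directions by the same rule was not counted. No test for an outlying array was made for single probes, since each group holds 3 arrays.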

How the results depend on the processing

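Atf3, Fosb, Jund and all 3 Fosl2 probes kept their tissue calls in both genotypes in every alternative run for them, which were 21 each, or 20 for Fosl2 probes 2 and 3, which the brightest-probe setting leaves out. The counts of member probes called between tissues ranged over 6 to 8 in control and 6 to 8 in Tbet flox mice when 1 replicate was left out, and over 4 to 9 and 5 to 8 in the other alternatives, where 4 and 5 were of 7 brightest probes. In spleen between genotypes the count was 0 to 1 with 1 replicate left out, and the 1 was Fos without spleen control replicate 2. Member probes that did not pass either way changed sign in 34 of 1025 member values, none of them called, and the cause was not tested. With arrays scaled to 1 median, the genotype difference in PGWAT was -0.12 for both the first and second Fosl2 probes. The interaction of these probes was 0.0242 and 0.0191 with no background correction and 0.0238 and 0.0184 in the authors' processed table. Without the 2 PGWAT arrays that stood apart, Fosl2 probe 2 had an interaction of 0.0112, Jun had one of 0.0305, and Jun differed by 0.15 between tissues in Tbet flox mice. With 1 replicate left out, the interaction ranged from -0.00147 to 0.379 for Fos and from -0.0684 to 0.0428, -0.183 to 0.148 and -0.271 to 0.449 for the 3 Fosl2 probes. The same range for the genotype difference in PGWAT was -0.139 to 0.192 for Fosl2 probe 2 and -0.295 to 0.425 for Fosl2 probe 3. In spleen it was -0.0959 to 0.0331 for Fosl2 probe 3 and -0.139 to 0.0262 for the second Junb probe, and for Jun between tissues in Tbet flox mice it was -0.352 to 0.152. The first Junb probe lost its Tbet flox tissue call with arrays scaled to 1 median (1.72, adjusted p = 0.0600) and passed in control mice with no weight per tissue (adjusted p = 0.0192), and the second passed there with no filter on dim probes (0.0288) and no weight (0.0371).

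Counts over all probes moved more than those of the members. Between genotypes in PGWAT 38 probes were called, against 8 with arrays scaled to 1 median, 71 with no filter, 819 with no weight per tissue, and 0 with the compared groups alone or without the 2 PGWAT arrays. In spleen 336 were called, against 160 scaled, 686 with no background correction, 674 in the authors' table, 58 with no filter, 0 with no weight and 16 with the groups alone. The interaction gave 12, against 8 scaled, 24 with no background correction and in the authors' table, 44 with no filter, 27 with no weight and 0 without the 2 arrays. Between tissues 3148 and 1949 were called, against 2079 in control mice with the groups alone and 1983 and 1109 without the 2 arrays. With 1 replicate left out, the genotype count in PGWAT was 5 (without PGWAT Tbet flox 2) to 77 (without PGWAT control 2) and at most 18 without any other array. In spleen it was 8 to 570, at 8 without spleen Tbet flox 1, 27 without spleen control 1, 29 and 139 without spleen Tbet flox 3 and 2, and 570 without spleen control 3. The interaction count was 1 (without PGWAT Tbet flox 3) to 69 (without PGWAT control 2). The tissue count was 2054 to 3080 in control mice, with the lowest without PGWAT control 1, and 742 to 2295 in Tbet flox mice, where it was 742, 1115 and 877 without PGWAT Tbet flox 1, 2 and 3. Scaling to 1 median moved the median of all probes between tissues in Tbet flox mice from -0.08 to -0.24, with 672 called higher and 1603 lower in place of 886 and 1063. With the replicate block the member counts stayed at 0 and 0 between genotypes, 6 and 7 between tissues and 0 for the interaction, while the counts over all probes fell to 6, 23, 2830, 1720 and 2. The chip could not be used as a block, because each chip holds 1 tissue. Signal over background limits the spleen values of Atf3, the second Junb probe and Fosl2 probes 2 and 3. The spleen values of the brightest Fosl2 probe were detected but lay close to background.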
